A study of Mus musculus with 36 samples.

Results

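Established 4T1 primary tumors were compared with mammary glands of the same strain at 6 weeks post-inoculation (week 6). The comparison holds 6 of the 36 RNA-seq libraries of the series, chosen by their column names alone: 3 tumors grown from 4T1 cells in BALB/c mice and 3 BALB/c glands that received only Matrigel, the basement membrane gel used as carrier. 4T1 is a luciferase-expressing, metastatic, triple-negative mammary tumor line derived from BALB/c mice, so tumor and host share a strain. Cells or gel were given through the teat canal of the third mammary gland of lactating females, 1 h after their pups had been weaned (the females had been mated at 8 weeks of age and nursed for 10 days), so the control glands are glands that have regressed after lactation and not glands of animals that had never given birth. All tumors came from this 1 line, and the tissue was frozen whole, with host cells and tumor cells together. Where the week 6 result is set beside others, the 6 libraries each of 4T1 tumors and BALB/c Matrigel glands at week 1 and at week 3 and the 6 libraries of Py230 tumors (from a C57BL/6 mammary tumor line) and C57BL/6 Matrigel glands at week 6 were used.

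A resting mammary gland is mostly fat. Adipocytes fill the pad, and ducts of luminal epithelium, which answers to estrogen, progesterone and prolactin and makes milk during lactation, are wrapped by contractile myoepithelial cells. A carcinoma that starts inside the ducts first grows within this myoepithelial layer and later breaks through it into the fat pad. 4T1 tumors are known for secreting granulocyte colony-stimulating factor and for drawing large numbers of neutrophils.

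The deposited expression values are standardized scores. Over the 21650 genes each library averages 0 with an SD of 1, so a score of 1 lies 1 SD of that library above its average gene, and differences below are tumor minus gland in these score units. Across the 13567 genes whose mean normalized count reached 100, 1 score unit corresponded to a step of 2.78 on the log2 scale of that count, given here as a guide to size only. Read depth is unknown from such values. Within a group the libraries correlated at 0.987 to 0.993 over genes for the tumors and at 0.976 to 0.987 for the glands, and a tumor with a gland at 0.880 to 0.910. No 2 libraries of the series were copies of each other, the highest correlation being 0.993. For 3 libraries against 3 the smallest p that exact permutation allows is 0.1, so calls rest on limma's moderated fit over all 36 libraries, with Benjamini-Hochberg adjusted p-values over all genes and a threshold of 0.05. Each SE below comes from that fit, which pools the spread of a gene within all 12 groups. It can therefore differ from the spread of the 3 tumors and 3 glands alone, and n = 3 gives the libraries per group. In bulk tissue, fewer cells of a type and less RNA per cell cannot be told apart.

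Most of the transcriptome differed between the 4T1 tumors and the glands. Of 21650 genes, 13015 were called (60.1%), 8360 higher (38.6% of all genes) and 4655 lower (21.5%). Among called genes 64.2% were higher, but after cyclic loess normalization 6137 of 12140 called genes were higher, which is 50.6%, so the surplus of higher genes depends on the scaling. Differences of at least 1 score unit leaned the other way, with 198 genes called higher and 693 called lower by that much. The 3 tumor values and the 3 gland values did not overlap for 66.6% of all genes, 41.5% with tumors above and 25.1% with tumors below. The median difference over all genes was 0.065. Counts of called list members below are to be read against the 38.6% of all genes called higher and the 21.5% called lower.

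RNA of skeletal muscle and skin genes was unequal between libraries and is given first, because it touches results below. The mean score of 15 skeletal muscle genes was -0.45, -0.70 and -0.029 in the tumors and 1.86, 2.22 and 1.80 in the glands, and 14 of the 15 were called lower in tumors with a median difference of -2.44. Every gland lay above every tumor. Of the defining markers, the fast myosin heavy chain gene Myh4 scored -0.34, -0.50 and 0.45 in the tumors and 2.98, 3.38 and 3.00 in the glands. With the muscle mean added to the fit as a covariate, an alternative chosen after seeing the data, 9530 genes were called, 8945 of them among the 13015. Because tumors and glands did not overlap in this mean, the adjusted week 6 difference is an extrapolation for every gene. Calls lost or gained with the covariate, here and below, therefore cannot separate muscle RNA from the tumor-gland difference. For 12 keratinocyte genes the mean score was -1.55, -1.71 and -0.50 in the tumors and -1.79, 0.18 and -1.68 in the glands, so tumor 3 and gland 2 stood above the others. None of the 12 keratinocyte genes was called by limma (0 at an unadjusted p under 0.05), but 2 were called higher without gland 2. None of 6 erythroid genes was called either (1 at an unadjusted p under 0.05). Filaggrin (Flg), a protein of the outer skin layers, scored -1.74, -2.0 and -0.35 in the tumors and -2.18, 1.41 and -2.01 in the glands. The part of muscle and skin RNA in the differences of single genes was not tested.

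Hmga2 had the largest upward difference among called genes whose groups did not overlap and whose mean normalized count reached 100. Hmga2 encodes an architectural chromatin protein of embryonic tissue that is shut off in most adult tissue, and it lies at chr10:120361275-120476469 (GRCm38). Its score was 1.35, 1.61 and 1.17 in the tumors and -1.95, -1.77 and -1.78 in the glands, a difference of 3.21 ± 0.23 (SE, n = 3 per group, adjusted p = 1.94e-11). The tumors were all on the upper side of the gene distribution and the glands near its lower end. Dmp1, a secreted acidic phosphoprotein best known from bone and dentin (chr5:104202613-104214102), scored 1.48, 1.52 and 1.53 in the tumors and -1.23, -1.03 and -1.06 in the glands and differed by 2.62 ± 0.16 (SE, n = 3, adjusted p = 1.5e-12). Tmprss11e, a transmembrane serine protease, followed with 1.16, 1.14 and 1.19 in the tumors and -1.84, -0.71 and -1.77 in the glands and a difference of 2.60 ± 0.30 (SE, n = 3, adjusted p = 5.95e-08), with gland 2 above the other glands. Gpa33, a cell surface antigen of intestinal epithelium, differed by 2.35 ± 0.18, Msln, the surface protein mesothelin, by 2.31 ± 0.17, and Cldn2, a tight junction protein that forms cation pores, by 2.05 ± 0.20 (SE, n = 3 each). Hhip, which binds and dampens hedgehog ligands, scored 1.62, 1.70 and 1.74 in the tumors and -0.54, -0.17 and -0.84 in the glands and differed by 2.21 ± 0.21 (SE, n = 3). S100a9 and S100a8, which form the neutrophil protein calprotectin, and Padi4, the neutrophil enzyme that citrullinates histones, completed the 10 largest with differences of 2.31, 2.12 and 2.05. Adjusted p-values of these 10 genes ran no higher than that of Tmprss11e.

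**Figure D1:**
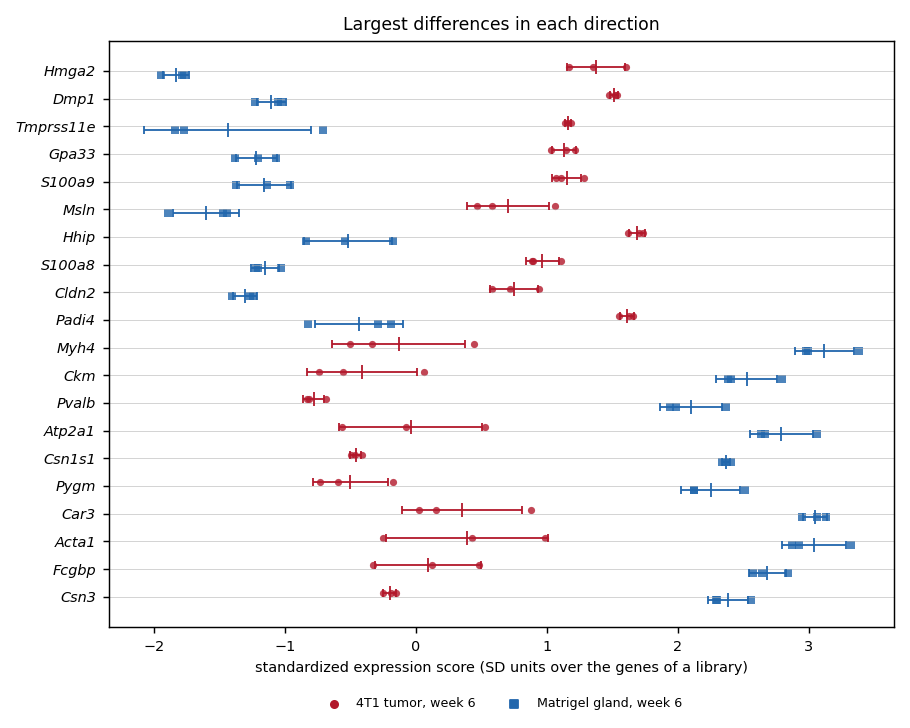
Standardized score (horizontal axis, SD units) of the 10 genes with the largest difference in each direction, in 3 tumors (red circles) and 3 glands (blue squares) of week 6; vertical ticks are group means and bars their SD. Each gene's tumor values lie wholly to one side of its gland values, and gland 2 stands above the other glands for Tmprss11e.

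Muscle, milk and fat genes made up most of the 10 largest drops. Myh4 differed by -3.25 ± 0.94 (SE, n = 3, adjusted p = 0.004), and 5 further muscle genes followed, with -2.94 for the muscle creatine kinase Ckm, -2.88 for the calcium buffer Pvalb, -2.83 for the calcium pump Atp2a1, -2.75 for the glycogen phosphorylase Pygm and -2.65 for skeletal actin Acta1. With the muscle covariate the differences of Myh4, Ckm, Pvalb, Atp2a1 and Acta1 were no longer called. That covariate is the mean of a list that holds Myh4, Ckm and Acta1 themselves, and in it every gland lay above every tumor. The loss of these calls was therefore largely built in and tests nothing about these genes. The milk caseins stood apart from this group by their small spread. Csn1s1, the alpha-S1 casein (chr5:87666208-87682578), scored -0.47, -0.50 and -0.42 in the tumors and 2.37, 2.34 and 2.40 in the glands and differed by -2.83 ± 0.16 (SE, n = 3, adjusted p = 3.23e-13). Csn3, the kappa casein that stabilizes milk micelles, scored -0.25, -0.16 and -0.19 in the tumors and 2.29, 2.30 and 2.56 in the glands and differed by -2.58 ± 0.13 (SE, n = 3, adjusted p = 6.77e-14). Car3, the carbonic anhydrase of fat and slow muscle, differed by -2.70 ± 0.37, and Fcgbp, a mucin-like secreted protein, by -2.59 ± 0.20 (SE, n = 3 each).

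All 24 adipocyte genes were called lower in the tumors, where 21.5% of all genes were, and their median difference was -1.86 with a range from -2.70 to -0.84. Adiponectin (Adipoq), the fat cell hormone, scored -0.41, -0.56 and -0.017 in the tumors and 2.08, 1.79 and 2.13 in the glands. Perilipin 1 (Plin1), the coat protein of fat droplets, scored -0.53, -0.46 and -0.26 in the tumors and 2.02, 1.71 and 1.96 in the glands. Neither overlapped between the groups. Scd1, which makes monounsaturated fatty acids, and Lpl, which releases fatty acids from lipoproteins, had the smallest p-values of the list, with differences of -2.19 ± 0.27 (adjusted p = 1.85e-07) and -1.94 ± 0.24 (SE, n = 3, adjusted p = 1.63e-07). The transcription factors Pparg and Cebpa, which drive fat cell differentiation, differed by -1.28 and -0.84, less than the median of the list.

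Milk genes were still measurable in the glands 6 weeks after weaning and lower in the tumors. Of 15 milk and lactation genes 11 were called lower and none higher, with a median of -1.11, and the mean score of the list was -0.72, -0.69 and -0.70 in the tumors against 0.54, 0.52 and 0.51 in the glands. Elf5, the transcription factor of the alveolar lineage, scored -0.80, -0.75 and -0.80 in the tumors and 1.09, 1.08 and 1.32 in the glands and differed by -1.95 ± 0.079 (SE, n = 3, adjusted p = 2.47e-15). Butyrophilin (Btn1a1), needed to shed milk fat globules, scored -0.71, -0.69 and -0.71 in the tumors and 1.84, 1.84 and 1.79 in the glands. Csn1s2b, Wap, Glycam1 and Olah were not called, with differences from -0.24 for the whey protein Wap to 0.14 for Glycam1.

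Of 21 luminal genes 12 were called lower and 2 higher, with a median of -0.56. Prlr, the prolactin receptor, scored -0.47, -0.57 and -0.27 in the tumors and 1.89, 2.02 and 2.16 in the glands and differed by -2.46 ± 0.15 (SE, n = 3, adjusted p = 1.00e-12). Tfap2b, a transcription factor of luminal cells, differed by -1.75 ± 0.11 (SE, n = 3, adjusted p = 2.66e-12). The progesterone receptor Pgr and the estrogen receptor Esr1 were called lower as well, by -1.62 and -0.50. Several genes of epithelial structure were not called. Krt18, a keratin of simple epithelia, scored 2.07, 1.83 and 2.13 in the tumors and 1.78, 1.88 and 2.07 in the glands, and overlapped between the groups. The adhesion gene Epcam scored 1.90, 1.11 and 1.85 in the tumors and 1.62, 1.76 and 1.88 in the glands, where tumor 2 was lowest. Cdh1, which encodes E-cadherin, scored 1.60, 1.01 and 1.63 in the tumors and 1.25, 1.47 and 1.5 in the glands and overlapped in the same way. The luminal transcription factor Gata3 was not called either (0.015, adjusted p = 0.89), whereas Krt8, the partner of Krt18, was called higher by 0.24 ± 0.081 (SE, n = 3, adjusted p = 0.013). Tnfsf11, the RANK ligand, was the other gene called higher, by 0.39, and lost its call with the muscle covariate (adjusted p = 0.093). With that covariate 0 of the 21 genes were called higher, so Krt8 lost its call as well. Without tumor 3 or without gland 1 the list held 1 higher call.

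Myoepithelial and basal genes were lower in 12 of 14 cases, with a median of -0.97, and 1 was higher. Oxtr, the oxytocin receptor through which these cells contract, scored -0.71, -0.60 and -0.64 in the tumors and 1.62, 1.59 and 1.73 in the glands and differed by -2.29 ± 0.18 (SE, n = 3, adjusted p = 8.05e-11). Trp63, the basal lineage transcription factor, scored -0.13, -0.66 and 0.0037 in the tumors and 0.68, 0.95 and 0.85 in the glands and differed by -1.09 ± 0.12 (SE, n = 3, adjusted p = 3.69e-08). Krt5, the cytokeratin used to stain this layer, scored -0.21, -0.71 and 0.77 in the tumors and 1.31, 1.75 and 1.54 in the glands, so tumor 3 lay closest to the glands. Tumor 3 also had the highest keratinocyte (-0.50), adipocyte (0.26) and skeletal muscle (-0.029) list means of the tumors. Whether these bear on its Krt5 score was not tested. Smooth muscle genes of the contractile apparatus were lower too, Myh11 by -1.74, Cnn1 by -1.51 and Acta2 by -0.97. Itgb4, a laminin receptor of basal cells and of many carcinomas, was called higher with 1.70, 1.66 and 1.78 in the tumors and 0.83, 1.03 and 0.99 in the glands, a difference of 0.76 ± 0.088 (SE, n = 3, adjusted p = 6.20e-08).

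Among 18 epithelial junction genes and regulators 8 were called lower (44.4%, against 21.5% of all genes) and 2 higher (11.1%, against 38.6%), with a median of -0.18. Ehf, an ETS factor of differentiated epithelium, differed by -1.84 ± 0.11 (adjusted p = 1.40e-12) and Tjp3, a tight junction scaffold, by -0.89 ± 0.087 (SE, n = 3, adjusted p = 4.50e-09). Cldn4, a claudin, was called higher by 0.54 ± 0.12 (SE, n = 3, adjusted p = 4.99e-04), but tumor 2 overlapped the glands, and the call was lost when only the 6 libraries entered the fit (adjusted p = 0.063) and with the replicate number as a block (adjusted p = 0.10). The lower count of this list was 5 when only those libraries were fitted and also without tumor 2 or without gland 3, and the higher count was 0 in the fit of those libraries and with the block and 1 when tumor 1, tumor 3, gland 1 or gland 2 was left out. Schwann cell genes, which mark nerve and some of which are also made by mammary epithelium, were called lower in 7 of 8 cases. Sox10, a factor of neural crest and of mammary epithelium, scored -0.72, -0.79 and -0.71 in the tumors and 1.11, 1.15 and 1.35 in the glands and differed by -1.94 ± 0.09 (SE, n = 3, adjusted p = 1.71e-14), while Ncmap, a myelin protein of Schwann cells, was called higher by 0.74.

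EMT (epithelial-mesenchymal transition) genes did not move one way. Of 16 genes 4 were called higher (25%, against 38.6% of all genes) and 5 lower (31.2%, against 21.5%), with a median of -0.12. Foxc2, a forkhead factor of mesenchyme, scored 0.18, 0.23 and 0.21 in the tumors and -0.98, -1.02 and -0.94 in the glands and differed by 1.18 ± 0.11 (SE, n = 3, adjusted p = 3.18e-09). Vimentin (Vim), the mesenchymal intermediate filament, and S100a4, a calcium-binding protein linked to metastasis, were called higher by 0.58 and 1.04, and the repressor Snai1 by 0.45. Its relative Snai2, which is also a basal cell factor, was called lower by -0.92 ± 0.10 (SE, n = 3, adjusted p = 5.13e-08), and Zeb1, Cdh2, Prrx1 and Fap were called lower by -0.37 to -0.56.

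**Figure D2:**
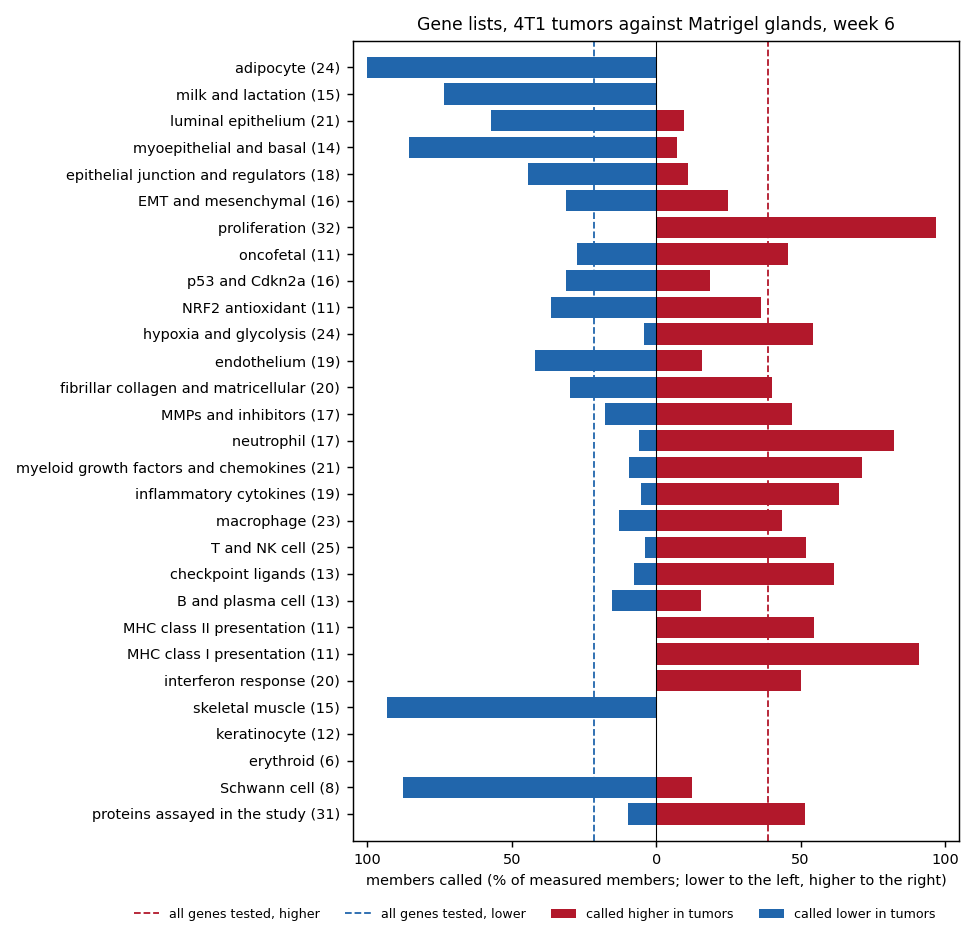
Share of the measured members of each of 29 gene lists (number in brackets) called higher (red, to the right) or lower (blue, to the left) in week 6 tumors; dashed lines mark the shares over all genes, 38.6% and 21.5%. Adipocyte, skeletal muscle, Schwann cell and myoepithelial lists extend farthest to the left, and proliferation, MHC class I and neutrophil lists farthest to the right.

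Proliferation genes were higher in the tumors almost without exception. The list spans DNA replication (Mcm genes, Rrm2), mitotic kinases and cyclins (Cdk1, Ccnb1, Plk1) and their regulators (E2f1, Foxm1, Myc). Of 32 genes 31 were called higher, where 38.6% of all genes were, and none lower, with a median of 0.87. Cdk1, the kinase that drives entry into mitosis, scored 0.92, 1.02 and 1.16 in the tumors and -0.12, 0.0075 and -0.47 in the glands and differed by 1.23 ± 0.19 (SE, n = 3, adjusted p = 4.83e-06). Top2a, which untangles replicated DNA, scored 1.54, 1.75 and 1.76 in the tumors and 0.50, 0.80 and 0.15 in the glands. Mcm6 and Mcm4, subunits of the replicative helicase, had the smallest p-values of the list, with differences of 0.87 ± 0.12 (adjusted p = 9.31e-07) and 0.59 ± 0.085 (SE, n = 3, adjusted p = 2.16e-06). Mki67, whose protein Ki67 is the usual stain for cycling cells, scored 1.33, 1.49 and 1.61 in the tumors and 0.65, 0.91 and 0.20 in the glands, and gland 2 was the highest gland for this gene as for Cdk1 and Top2a. Of this list, Mycn alone was not called (-0.17, adjusted p = 0.15), and without gland 1 the list held 1 lower call.

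The promoters of the genes of this list were searched for letters known from cell cycle control: TTTGAA (the CHR element), CCAAT (bound by NF-Y) and TTTCGCGC or TTTGGCGC (E2F sites). Each was sought on both strands, in the 300-base windows that RefSeq (GRCm38.p6) gives around gene starts. CCAAT was found in 22 of 27 windows of 26 matched genes (81.5%, against 37.4% of all 32851 windows), TTTGAA in 13 (48.1% against 17.9%) and an E2F sequence in 6 (22.2% against 0.813%). A match describes letters and not a used site. The list was written from general knowledge of cell cycle genes, so these shares describe the list and not its behavior in these tumors. The promoters of Mcm2, at chr6:88898731-88899030 on the minus strand, and Cdk1, at chr10:69352863-69353162 on the minus strand, are shown because they hold both the CHR and the CCAAT letters and had the smallest p-values among such genes. Capitals mark these letters on either strand.
Mcm2: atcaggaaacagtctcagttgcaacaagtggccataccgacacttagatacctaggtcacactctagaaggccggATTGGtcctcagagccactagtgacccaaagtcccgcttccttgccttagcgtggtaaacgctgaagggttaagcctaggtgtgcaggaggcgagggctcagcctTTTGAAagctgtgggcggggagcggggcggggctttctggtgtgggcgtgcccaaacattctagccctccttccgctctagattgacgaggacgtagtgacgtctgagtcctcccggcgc
Cdk1: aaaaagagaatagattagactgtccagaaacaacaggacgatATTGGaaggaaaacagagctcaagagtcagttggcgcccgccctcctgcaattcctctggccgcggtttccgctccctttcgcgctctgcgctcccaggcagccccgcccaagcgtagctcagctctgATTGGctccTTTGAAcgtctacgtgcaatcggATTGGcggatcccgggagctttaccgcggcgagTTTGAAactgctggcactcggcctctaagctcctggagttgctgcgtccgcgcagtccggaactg
Those of Mcm6, at chr1:128359656-128359955, and Mcm3, at chr1:20820263-20820562, both on the minus strand, are shown for the E2F letters in capitals, and in Mcm6 a match of each E2F sequence overlaps the other.
Mcm6: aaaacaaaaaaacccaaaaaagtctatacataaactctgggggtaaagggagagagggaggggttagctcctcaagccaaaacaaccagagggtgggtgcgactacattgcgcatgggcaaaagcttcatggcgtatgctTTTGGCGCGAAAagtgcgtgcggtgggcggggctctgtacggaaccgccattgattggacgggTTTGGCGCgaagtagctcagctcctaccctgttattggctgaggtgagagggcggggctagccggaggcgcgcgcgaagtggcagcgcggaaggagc
Mcm3: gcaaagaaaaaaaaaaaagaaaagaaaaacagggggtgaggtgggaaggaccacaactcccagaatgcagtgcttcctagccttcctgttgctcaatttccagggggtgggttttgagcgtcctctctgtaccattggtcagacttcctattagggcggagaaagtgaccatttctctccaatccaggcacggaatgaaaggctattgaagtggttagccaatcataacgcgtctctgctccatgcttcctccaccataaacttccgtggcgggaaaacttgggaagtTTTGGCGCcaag

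Oncofetal genes, active in the embryo and silent in most adult tissue, included Hmga2 and 4 more called higher among 11 measured, while 3 were called lower, with a median of 0.16. These shares, 45.5% higher and 27.3% lower, lie near the 38.6% and 21.5% of all genes. Hmga1, the close relative of Hmga2, scored 1.16, 1.40 and 1.12 in the tumors and 0.11, 0.14 and 0.14 in the glands and differed by 1.10 ± 0.071 (SE, n = 3, adjusted p = 3.34e-12). The RNA-binding protein genes Igf2bp2 and Igf2bp1, which stabilize growth-related transcripts, differed by 1.27 ± 0.079 (adjusted p = 1.68e-12) and 1.62 ± 0.14 (SE, n = 3, adjusted p = 4.60e-10). Igf2bp1 spread more between tumors, with -0.38, -0.82 and 0.27, yet all lay above the glands (-1.98, -1.88 and -1.95). The third family member Igf2bp3 was not called (0.16). Plagl1, an imprinted growth suppressor gene, was called lower by -0.97 ± 0.12 (SE, n = 3, adjusted p = 1.63e-07), as were Igf2 and Dlk1.

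Genes of the p53 pathway were mixed, with 3 of 16 called higher (18.8%, against 38.6% of all genes) and 5 lower (31.2%, against 21.5%) and a median of -0.012. Trp53 itself scored 0.89, 0.90 and 0.87 in the tumors and 0.83, 0.86 and 0.91 in the glands and was not called (adjusted p = 0.75). Mtap, an enzyme of methionine salvage encoded beside Cdkn2a (chr4:89137122-89181081), scored 2.08, 2.05 and 2.0 in the tumors and 0.76, 0.74 and 0.75 in the glands, a difference of 1.29 ± 0.055 (SE, n = 3, adjusted p = 2.52e-15). Cdkn2a was not called (-0.17, adjusted p = 0.24). The p53 target Trp53inp1, an autophagy and stress gene, was called lower by -0.45 ± 0.083 (SE, n = 3, adjusted p = 5.39e-05), and so were Ccng1, Eda2r and Phlda3. Of 11 NRF2 antioxidant genes 4 were called higher (36.4%, against 38.6% of all genes) and 4 lower (36.4%, against 21.5%), so the higher share is near that of all genes. Slc7a11, the cystine importer that feeds glutathione synthesis, scored 1.54, 1.54 and 1.47 in the tumors and -0.36, -0.23 and -0.052 in the glands and differed by 1.73 ± 0.19 (SE, n = 3, adjusted p = 2.02e-08). Nqo1, a quinone reductase and a classic NRF2 target, went down with -0.26, -0.71 and -0.54 in the tumors and 0.55, 0.62 and 0.75 in the glands, a difference of -1.14 ± 0.099 (SE, n = 3, adjusted p = 5.90e-10), and the glutathione synthesis gene Gclc was called lower by -0.45.

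Hypoxia and glycolysis genes were called higher in 13 of 24 cases (54.2%, against 38.6% of all genes) and lower in 1 (4.17%, against 21.5%), with a median of 0.34. Car9, the hypoxia-induced carbonic anhydrase (chr4:43506966-43513729), scored 0.95, 1.05 and 0.79 in the tumors and -0.76, -0.67 and -0.67 in the glands and differed by 1.63 ± 0.16 (SE, n = 3, adjusted p = 2.89e-09). P4ha1, a collagen prolyl hydroxylase, differed by 0.63 ± 0.074 (adjusted p = 8.13e-08), and the glucose transporter Slc2a1 by 0.77 ± 0.11 (SE, n = 3, adjusted p = 1.19e-06). Egln3 and Ankrd37, which hypoxia-inducible factors induce, differed by 0.98 and 0.75. Not every gene of the list followed. Vegfa, the endothelial growth factor, scored 1.19, 1.31 and 1.25 in the tumors and 1.25, 1.17 and 1.28 in the glands, overlapped fully and was not called (0.019 ± 0.10 (SE, n = 3), adjusted p = 0.88), and its sign changed under other scalings. Ldha, Pdk1 and Bnip3 were not called either, with differences from -0.14 to -0.019. Aldoa, the aldolase also abundant in muscle, was called lower by -0.63 ± 0.21 (SE, n = 3, adjusted p = 0.011), with no call after the muscle covariate (difference -0.054) or without gland 2 (adjusted p = 0.057).

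The core of the hypoxia response element, ACGTG on either strand, was present in 16 of 28 promoter windows of 21 matched hypoxia and glycolysis genes (57.1%) and in 19.6% of all windows. This list too was written from general knowledge, so the share describes the list and not its behavior in these tumors. The windows of Car9, at chr4:43506776-43507075, and P4ha1, at chr10:59323046-59323345, both on the plus strand, are shown with these letters in capitals, as the called members with the smallest p-values that hold them.
Car9: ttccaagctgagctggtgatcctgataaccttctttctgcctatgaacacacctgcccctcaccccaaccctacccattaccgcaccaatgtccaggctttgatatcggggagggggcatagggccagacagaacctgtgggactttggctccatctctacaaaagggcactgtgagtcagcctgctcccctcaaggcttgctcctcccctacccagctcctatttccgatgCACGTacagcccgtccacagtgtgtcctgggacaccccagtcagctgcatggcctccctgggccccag
P4ha1: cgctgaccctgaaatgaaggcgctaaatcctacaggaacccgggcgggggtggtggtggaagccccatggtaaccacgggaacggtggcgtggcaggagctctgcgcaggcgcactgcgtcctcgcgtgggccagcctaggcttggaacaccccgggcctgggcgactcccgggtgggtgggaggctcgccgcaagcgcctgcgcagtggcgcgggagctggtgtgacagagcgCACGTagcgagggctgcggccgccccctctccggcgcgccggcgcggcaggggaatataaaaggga

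Endothelial genes leaned lower, with 8 of 19 called lower (42.1%, against 21.5% of all genes), 3 called higher (15.8%, against 38.6%) and a median of -0.15. Tek, the angiopoietin receptor, scored 0.19, 0.17 and 0.26 in the tumors and 1.10, 1.00 and 0.94 in the glands and differed by -0.81 ± 0.11 (SE, n = 3, adjusted p = 4.70e-07). Vwf, the platelet-binding protein of vessel walls, differed by -0.72 ± 0.10 (adjusted p = 1.33e-06), and Pecam1, whose protein CD31 is the usual vessel stain, by -0.15 ± 0.046 (SE, n = 3, adjusted p = 0.006). Angpt2, the ligand released during vessel remodelling, and Pgf, a ligand of the VEGF family, were called higher by 0.47 and 0.59. Kdr, the main VEGF receptor of endothelium, was called lower by -0.52.

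Of 20 collagen and matricellular genes 8 were called higher (40%, against 38.6% of all genes) and 6 lower (30%, against 21.5%), with a median of 0.20, so the higher share of the list is that of all genes. Fibronectin (Fn1) scored 3.41, 3.21 and 3.36 in the tumors and 2.47, 2.41 and 1.91 in the glands, and Col12a1, a collagen on the surface of fibrils, was called higher by 0.91. Thbs1, a matricellular protein that activates TGF-beta, differed by 0.85 ± 0.10 (SE, n = 3, adjusted p = 8.80e-08). The fibrillar collagens Col1a1, Col1a2 and Col3a1 were not called, with 0.22, -0.095 and -0.10. Decorin (Dcn), a proteoglycan that coats collagen, scored 1.35, 1.13 and 1.53 in the tumors and 2.74, 2.73 and 2.43 in the glands and differed by -1.30 ± 0.17 (SE, n = 3, adjusted p = 4.98e-07), and Lum and Fbln1 were called lower by -0.90 and -0.88. The higher count was 5 under robust line rescaling and with the muscle covariate.

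Among 17 matrix metalloproteinases, inhibitors and plasminogen system genes 8 were called higher (47.1%, against 38.6% of all genes) and 3 lower (17.6%, against 21.5%), with a median of 0.27, which is near the shares of all genes. Mmp13, an interstitial collagenase, scored 1.26, 0.99 and 0.94 in the tumors and -0.52, -0.21 and -0.54 in the glands. Mmp8, the neutrophil collagenase, differed by 1.45 ± 0.15 (SE, n = 3, adjusted p = 1.15e-08). Mmp9, the gelatinase made by neutrophils, macrophages and tumor cells, scored 1.24, 1.04 and 1.19 in the tumors and 0.85, 0.51 and 0.18 in the glands and differed by 0.64 ± 0.21 (SE, n = 3, adjusted p = 0.012). Its call was lost without gland 3, the lowest gland (adjusted p = 0.081). Timp1 was called higher by 0.93, whereas the inhibitors Timp3 and Timp4 were called lower by -0.66 ± 0.065 (adjusted p = 5.31e-09) and -1.29 ± 0.27 (SE, n = 3, adjusted p = 2.68e-04).

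Neutrophil genes were higher in 14 of 17 cases, with a median of 0.87, and 1 was lower. S100a9 scored 1.28, 1.07 and 1.11 in the tumors and -1.14, -0.96 and -1.38 in the glands and S100a8 1.11, 0.89 and 0.89 in the tumors and -1.22, -1.03 and -1.21 in the glands, so the groups were far apart in both. Ngp, a granule protein of maturing neutrophils, scored 0.67, 0.13 and -0.099 in the tumors and -1.88, -1.91 and -1.84 in the glands, Cxcr2, the receptor for neutrophil chemokines, 0.28, 0.012 and 0.16 in the tumors and -1.33, -1.40 and -1.25 in the glands, and Trem1, an activating receptor, 0.077, -0.037 and 0.061 in the tumors and -1.63, -1.52 and -1.57 in the glands. Ly6g, the usual mouse neutrophil marker, was near the bottom of the distribution in both groups and still higher in every tumor, with -1.57, -1.76 and -1.80 in the tumors and -2.19, -2.29 and -2.22 in the glands (difference 0.52 ± 0.049 (SE, n = 3), adjusted p = 2.13e-09). Stfa2l1, a stefin of neutrophils, differed by 0.96 ± 0.066 (SE, n = 3, adjusted p = 8.20e-12). The gene against the direction was Ltf, lactoferrin, a protein of neutrophil granules that mammary epithelium also secretes, with 0.77, 0.50 and 0.49 in the tumors and 2.64, 2.67 and 2.89 in the glands and a difference of -2.15 ± 0.13 (SE, n = 3, adjusted p = 7.91e-13). With a minimum mean normalized count of 100, which only 6 of the 17 genes reach, 4 were called higher.

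Growth factors and chemokines of myeloid cells were called higher in 15 of 21 cases and lower in 2, with a median of 0.74. Csf3, which encodes granulocyte colony-stimulating factor, scored 0.39, 0.35 and 0.17 in the tumors and -1.24, -1.10 and -0.89 in the glands and differed by 1.38 ± 0.15 (SE, n = 3, adjusted p = 3.46e-08). The neutrophil chemokines Cxcl2 and Cxcl3 differed by 1.55 ± 0.19 (adjusted p = 2.50e-07) and 1.53 ± 0.17 (SE, n = 3, adjusted p = 2.74e-08), and Cxcl1 and Cxcl5 by 1.18 and 0.93. Ccl2, which draws monocytes, scored 0.44, 0.46 and 0.59 in the tumors and -0.14, -0.34 and -0.25 in the glands and differed by 0.74 ± 0.23 (SE, n = 3, adjusted p = 0.008), with no call after the muscle covariate (adjusted p = 0.057). Cxcl12, a chemokine of resident stroma that retains leukocytes, went down with 0.44, 0.68 and 0.66 in the tumors and 1.90, 1.85 and 1.78 in the glands, a difference of -1.25 ± 0.083 (SE, n = 3, adjusted p = 5.91e-12), and the eosinophil chemokine Ccl11 was called lower by -0.57.

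Of 19 inflammatory cytokine genes 12 were called higher and 1 lower, with a median of 0.48. Ptgs2, the inducible cyclooxygenase, scored 1.25, 1.51 and 0.93 in the tumors and -0.45, -0.71 and -0.60 in the glands and differed by 1.82 ± 0.17 (SE, n = 3, adjusted p = 1.54e-09). Il1b scored 1.21, 0.91 and 1.12 in the tumors and -0.35, -0.49 and -0.45 in the glands and differed by 1.51 ± 0.25 (SE, n = 3, adjusted p = 1.66e-05), and its relative Il1a by 1.05. Il6 and Il11, cytokines that signal through gp130, differed by 0.48 ± 0.14 (adjusted p = 0.004) and 0.53 ± 0.054 (SE, n = 3, adjusted p = 1.03e-08), both at scores of -0.81 or below in all 6 libraries. Tnf was not called (0.11, adjusted p = 0.40). Tgfb1 was called higher by 0.48 ± 0.089 (SE, n = 3, adjusted p = 5.57e-05) and Tgfb2 lower by -0.32 ± 0.099 (SE, n = 3, adjusted p = 0.006), the latter without a call once tumor 3 was left out (adjusted p = 0.0502). Without gland 1 the list held 2 lower calls.

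Of 23 macrophage genes 10 were called higher (43.5%, against 38.6% of all genes) and 3 lower (13%, against 21.5%), with a median of 0.25. These shares lie near those of all genes. The mean score of the macrophage list was 1.15, 1.14 and 1.12 in the tumors and 1.15, 0.92 and 0.77 in the glands, gland 1 lying among the tumors. The general macrophage markers Adgre1 and Csf1r were not called, Adgre1 with 1.11, 1.10 and 1.14 in the tumors and 1.39, 1.05 and 0.59 in the glands. Msr1, a scavenger receptor, scored 1.63, 1.68 and 1.56 in the tumors and 0.42, 0.082 and 0.23 in the glands and differed by 1.38 ± 0.17 (SE, n = 3, adjusted p = 1.66e-07). Arg1, which breaks down arginine, scored 1.76, 1.81 and 1.75 in the tumors and 0.50, 0.66 and 0.61 in the glands, and Nos2, which makes nitric oxide from it, was called higher by 0.84. Retnla, a marker of alternatively activated macrophages that fat also makes, went the other way with -0.26, -0.36 and -0.24 in the tumors and 2.04, 1.82 and 1.27 in the glands, a difference of -2.0 ± 0.24 (SE, n = 3, adjusted p = 1.78e-07). Cd163, the scavenger receptor for haemoglobin, scored 0.62, 0.64 and 0.95 in the tumors and 1.58, 1.41 and 0.61 in the glands and was not called (adjusted p = 0.075), although without gland 3 it was called lower by -0.76 (adjusted p = 0.0045), as it was after cyclic loess normalization (-0.53, adjusted p = 0.049). Without gland 3 the list held 6 higher and 5 lower calls, and with the muscle covariate 5 higher.

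T and NK cell genes were called higher in 13 of 25 cases (52%, against 38.6% of all genes) and lower in 1 (4%, against 21.5%), with a median of 0.39. The mean score of the T and NK cell list was -0.26, -0.24 and -0.29 in the tumors and -0.61, -0.74 and -0.66 in the glands. Genes of inhibitory receptors had the smallest p-values. Tigit scored -0.25, -0.19 and 0.11 in the tumors and -1.40, -1.35 and -1.34 in the glands and differed by 1.25 ± 0.17 (SE, n = 3, adjusted p = 6.93e-07), and Pdcd1, which encodes PD-1, scored -0.14, -0.11 and 0.0028 in the tumors and -1.23, -1.38 and -1.23 in the glands and differed by 1.20 ± 0.16 (SE, n = 3, adjusted p = 5.94e-07). Cd8a, of cytotoxic T cells, scored 0.097, 0.21 and 0.26 in the tumors and -0.93, -0.89 and -0.70 in the glands and differed by 1.03 ± 0.21 (SE, n = 3, adjusted p = 1.71e-04), whereas Cd4, of helper T cells, scored -0.16, -0.35 and -0.39 in the tumors and 0.19, -0.23 and -0.13 in the glands and was not called (adjusted p = 0.17). Cd4 was called lower with the replicate block (-0.25, adjusted p = 0.032) and with the muscle covariate (-0.48, adjusted p = 0.020). Foxp3, the regulatory T cell factor, was not called (0.14, adjusted p = 0.25). The pan-T-cell gene Cd3e differed by 0.39 ± 0.17 (SE, n = 3, adjusted p = 0.047) and missed the threshold when any of the 6 libraries was left out (adjusted p = 0.054 to 0.13) and with the BALB/c libraries alone (adjusted p = 0.069), cyclic loess normalization (adjusted p = 0.057) or the muscle covariate (adjusted p = 0.78). The granzyme gene Gzmb differed by 0.46 ± 0.20 (SE, n = 3, adjusted p = 0.045), with tumor 3 no higher than the glands, and lost its call without tumor 1, tumor 2 or any 1 gland, at an adjusted p of 0.070 to 0.25. It was not called either in the fits of the 6 or the 18 BALB/c libraries, after cyclic loess normalization, with the replicate block or with the muscle covariate (adjusted p = 0.059 to 0.61). The perforin gene Prf1 was called higher by 0.93. Ncr1, an activating receptor of NK cells, was called lower by -0.30 ± 0.12 (SE, n = 3, adjusted p = 0.030), and not without tumor 2, tumor 3 or gland 1 (adjusted p = 0.078 to 0.13) or under quantile (adjusted p = 0.17) and robust line scaling (adjusted p = 0.19). The higher count of the list was 8 without tumor 2 or without gland 2 and 6 with the muscle covariate, so it moved by over 1.5 times.

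Ligands of immune checkpoint receptors were called higher in 8 of 13 cases (61.5%, against 38.6% of all genes). Cd276 (B7-H3) scored 1.29, 1.25 and 1.28 in the tumors and 0.41, 0.47 and 0.43 in the glands and differed by 0.84 ± 0.084 (SE, n = 3, adjusted p = 7.76e-09), and Pvr, the ligand of Tigit, differed by 0.55 ± 0.053 (SE, n = 3, adjusted p = 3.73e-09). Cd274, which encodes PD-L1, scored 0.83, 0.86 and 0.63 in the tumors and 0.32, 0.23 and 0.37 in the glands and was called higher by 0.47 (adjusted p = 0.001), and Pdcd1lg2, which encodes PD-L2, by 0.93. Vtcn1 (B7-H4), made by mammary epithelium, was called lower by -0.93 ± 0.15 (SE, n = 3, adjusted p = 1.55e-05). With the muscle covariate 5 of the 13 were called higher.

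Of 11 MHC class I genes 10 were called higher, with a median of 0.29, and Nlrc5, their transactivator, and Psmb10, an immunoproteasome subunit, differed by 0.76 ± 0.12 (adjusted p = 4.39e-06) and 0.47 ± 0.084 (SE, n = 3, adjusted p = 3.48e-05). Of 11 MHC class II genes 6 were called higher, with a median of 0.38, led by the peptide exchange genes H2-DMb1 and H2-DMa with 0.72 ± 0.16 (adjusted p = 3.51e-04) and 0.60 ± 0.14 (SE, n = 3, adjusted p = 6.19e-04). The classical class II genes H2-Aa, H2-Ab1 and H2-Eb1 were not called, at 0.26 to 0.31. Of 20 interferon-response genes 10 were called higher, with a median of 0.28, among them the viral RNA sensor Oas1a by 0.60 ± 0.14 (adjusted p = 7.61e-04) and the transcription factor Irf1 by 0.36 ± 0.089 (SE, n = 3, adjusted p = 0.001). The shares called higher were 90.9% for class I, 54.5% for class II and 50% for interferon genes, against 38.6% of all genes. With the muscle covariate 4 class I, 3 class II and 1 interferon gene were called higher, and Irf1 was not (adjusted p = 0.055). Robust line rescaling left 5 class I and 4 class II genes called higher.

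Of 13 B and plasma cell genes 2 were called higher (15.4%, against 38.6% of all genes) and 2 lower (15.4%, against 21.5%). The higher count was 5 under robust line rescaling and 1 without gland 2, and the lower count 1 without tumor 2 or gland 1. Sdc1, a proteoglycan of plasma cells and of epithelium, was called higher by 0.61 ± 0.12 (SE, n = 3, adjusted p = 7.72e-05), and the plasma cell receptor gene Tnfrsf17 lower by -0.40 ± 0.092 (SE, n = 3, adjusted p = 5.60e-04). Jchain, which joins secreted antibodies, was called lower by -1.02.

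**Figure D3:**
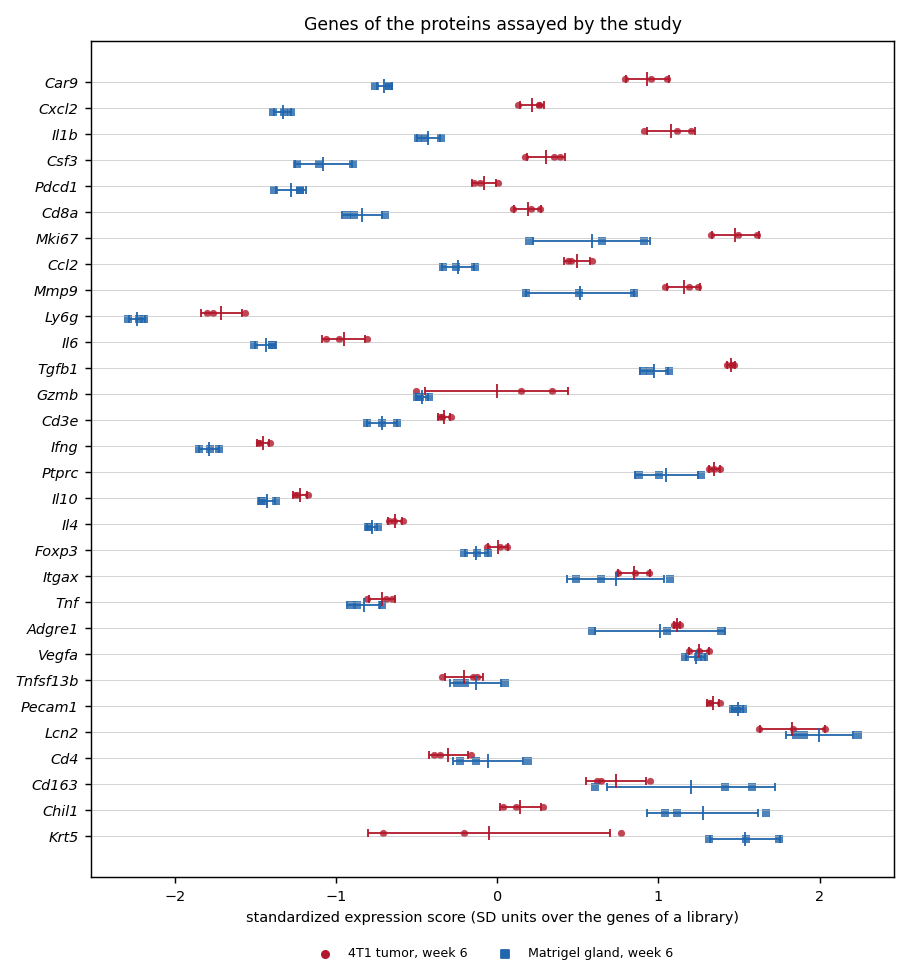
Standardized score (horizontal axis, SD units) of 30 genes whose proteins the study assayed by other methods, sorted by tumor minus gland difference, in 3 tumors (red circles) and 3 glands (blue squares) of week 6; vertical ticks are means and bars their SD. Car9 has the largest upward difference, Krt5 the largest downward one, and Vegfa, Tnf and Adgre1 overlap.

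The study assayed 31 of these gene products by staining or immunoassay, in tumors of these models, so the list is not independent of them. Of their genes 16 were called higher (51.6%, against 38.6% of all genes) and 3 lower (9.68%, against 21.5%). Chil1, which encodes chitinase 3-like 1, was called lower with 0.28, 0.034 and 0.12 in the tumors and 1.04, 1.11 and 1.67 in the glands, a difference of -1.13 ± 0.21 (SE, n = 3, adjusted p = 5.39e-05). Lcn2, lipocalin 2, a product of both neutrophils and regressing mammary epithelium, scored 2.03, 1.83 and 1.63 in the tumors and 1.85, 1.91 and 2.24 in the glands and was not called (adjusted p = 0.26). It was called lower under robust line scaling (-0.30, adjusted p = 0.033) and with the muscle covariate (-0.35, adjusted p = 0.048). Ifng was called higher by 0.33 ± 0.10 (SE, n = 3, adjusted p = 0.008) at scores of -1.41 or below in all 6 libraries, with no call after cyclic loess normalization (adjusted p = 0.060) or with the muscle covariate (adjusted p = 0.15). Ptprc, the leukocyte marker CD45, scored 1.35, 1.38 and 1.31 in the tumors and 1.26, 1.01 and 0.88 in the glands, with every tumor above every gland but no call (adjusted p = 0.069). It was called higher without gland 1 (adjusted p = 0.028), when only the 6 libraries were fitted (adjusted p = 0.030) and with the replicate block (adjusted p = 0.028). Itgax, Tnfsf13b, Il4 and Il10 were not called either, with differences of 0.11, -0.072, 0.14 and 0.21. Il4 was called higher when only the 6 libraries were fitted (adjusted p = 0.047) and under quantile (adjusted p = 0.0037) and robust line scaling (adjusted p = 0.0035), and Il10 in the fit of the 6 libraries (adjusted p = 0.0085), with the replicate block (adjusted p = 0.023) and under robust line scaling (adjusted p = 0.0075).

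At week 3 the same comparison gave 704 called genes (3.25%), 2.1% of all genes higher and 1.15% lower, and at week 1 3601 (16.6%), 9.91% higher and 6.72% lower. The week 3 figure depends on single libraries: it ranged from 3 without tumor 1 of week 3 to 2155 without tumor 3 of week 3, and was 1303 without tumor 2, 75, 15 and 20 without gland 1, 2 and 3 of week 3. The week 3 tumor 1 correlated with the week 6 tumors at a mean of 0.942, tumors 2 and 3 at 0.909 and 0.911. With the week 3 glands the means were 0.9428, 0.9835 and 0.9873 for tumors 1, 2 and 3, where those glands correlated with each other at 0.9789 to 0.9907. The adipocyte mean score was 0.86, 2.11 and 2.22 in these tumors and 2.17, 2.34 and 1.94 in the week 3 glands. Tumors 2 and 3 of week 3 thus lay close to glands, which limits reading the differences from week 3 as change within tumors. The difference between the week 6 and week 3 contrasts itself was called for 8008 genes (37%), 5552 with a more positive value at week 6 (25.6%) and 2456 with a more negative one (11.3%), a split that became 3427 and 3400 after cyclic loess normalization. Of the adipocyte genes 20 of 24 had a more negative value at week 6, of the milk genes 10 of 15 and of the luminal genes 10 of 21. Of the proliferation genes 23 of 32 had a more positive one, of the neutrophil genes 11 of 17 and of the hypoxia genes 11 of 24. For T and NK cell genes the order was different, with 22 of 25 called higher at week 1, 15 at week 3 and 13 at week 6, yet the change from week 3 to week 6 was called for 3 of 25, all more negative at week 6. MHC class II genes were called higher in 9 of 11 cases at week 1 and 6 at week 6, and none of the 11 was called by limma for the difference between the week 3 and week 6 contrasts (0 at an unadjusted p under 0.05).

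**Figure D4:**
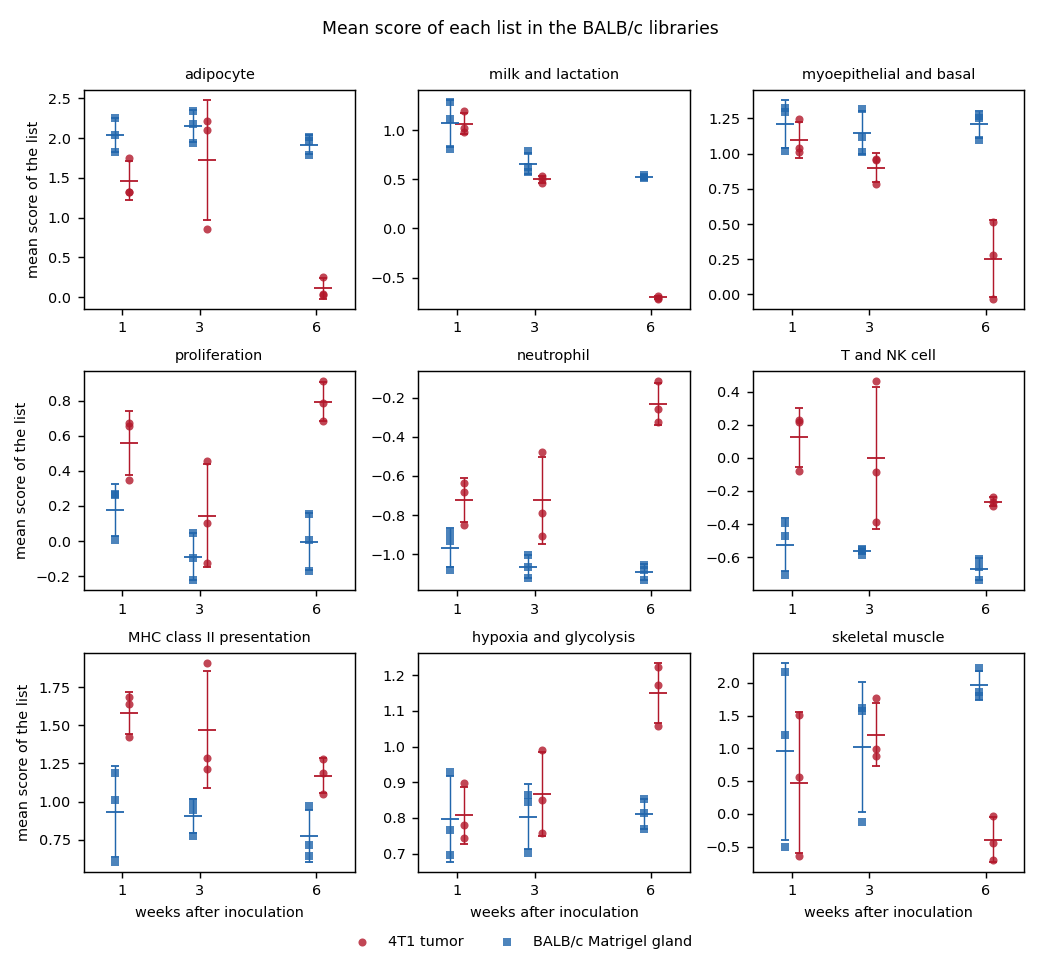
Mean score of 9 gene lists (vertical axis) in each 4T1 tumor (red circles) and BALB/c Matrigel gland (blue squares) at 1, 3 and 6 weeks (horizontal axis), with group means and SD, 3 libraries per group. Adipocyte, milk and myoepithelial lists of the tumors are lowest at week 6, proliferation, neutrophil and hypoxia lists highest, and the skeletal muscle list spreads widely among glands at weeks 1 and 3.

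The Py230 tumors of week 6, set against C57BL/6 glands, share no library with the 4T1 comparison and gave 10296 called genes (47.6%), 28.8% of all genes higher and 18.7% lower. Of the 8360 genes called higher in 4T1 tumors, 4250 were also called higher and 335 called lower in Py230 tumors, and of the 4655 called lower, 2275 were also called lower and 395 higher. The difference between the contrasts was called for 5517 genes (25.5%), 3110 more positive in 4T1 (14.4%) and 2407 more negative (11.1%), a split that became 4366 and 1964 after robust line rescaling and 2624 and 2932 after cyclic loess normalization, so its direction depends on the scaling. Strain and tumor line cannot be told apart here. Adipocyte genes were called lower in 24 of 24 cases in both models, and none of the 24 was called by limma for a difference between them (1 at an unadjusted p under 0.05). Proliferation genes were called higher in 31 of 32 cases in 4T1 and in 32 of 32 in Py230 tumors, and 1 differed. Milk genes did differ, 10 of 15 with a more negative value in 4T1, and so did 11 of 21 luminal, 7 of 14 myoepithelial and 8 of 18 junction genes. Neutrophil genes were more positive in 4T1 in 10 of 17 cases, and 9 of 16 p53 pathway genes were more negative. In Py230 tumors themselves 4 of the 15 milk genes were called higher and 6 lower. Csn3 fell in 4T1 tumors and had a Py230 difference of -0.0064, so the contrasts differed by -2.58 ± 0.19 (SE, adjusted p = 2.51e-10). For Elf5 the Py230 difference was -0.013 and the gap -1.94 ± 0.11 (SE, adjusted p = 7.97e-12). Csn1s1, by contrast, was called lower in Py230 tumors too, by -1.39 (adjusted p = 2.39e-07), with a gap of -1.44 ± 0.22 (SE, adjusted p = 2.11e-05). For Car9 no difference between the models was called, with 1.43 in Py230 and a gap of 0.21 ± 0.22 (SE, adjusted p = 0.54).

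**Figure D5:**
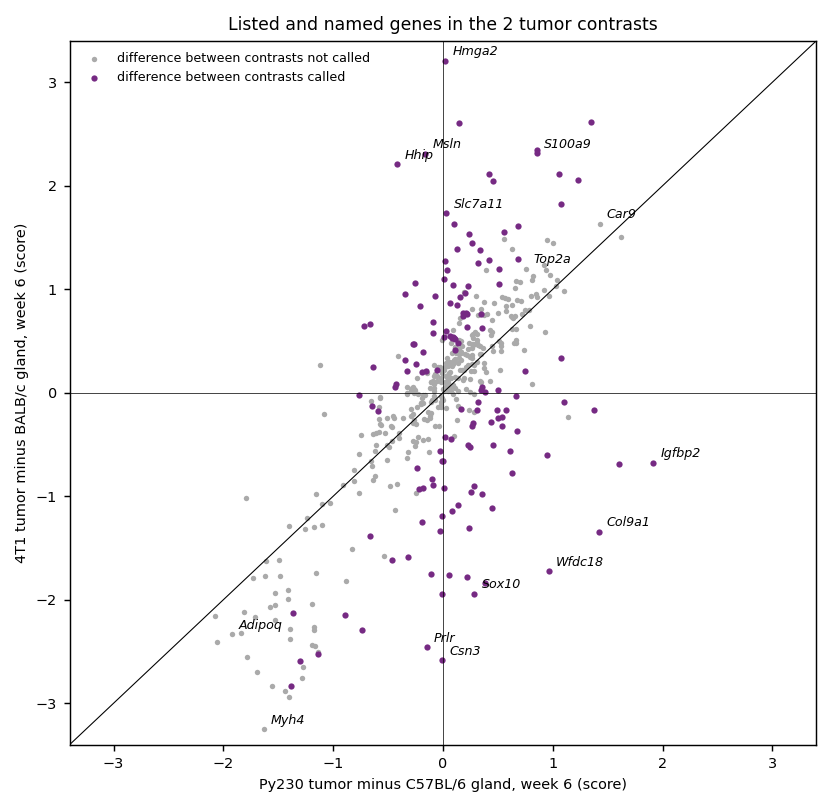
Week 6 difference of 487 listed and named genes in 4T1 tumors (vertical axis, tumor minus BALB/c gland, score units) against that in Py230 tumors (horizontal axis, tumor minus C57BL/6 gland); purple points are the 142 genes whose contrasts differ by test, and the diagonal marks equality. Hmga2, Hhip and Msln lie high near a Py230 difference of 0, Csn3 and Prlr low near 0, and Col9a1, Wfdc18 and Igfbp2 low on the right.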

How the data were processed

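RNA was measured in 3 4T1 tumors and 3 BALB/c Matrigel glands at week 6, and all 36 libraries (12 groups of 3) entered the fit. The authors extracted RNA from frozen tissue, made stranded libraries, used STAR and mm10 for alignment and summariseOverlaps for gene counts, and normalized with DESeq2. Versions and gene annotation are not given in the sources used here. The deposited expression table, though named for counts, holds a score per gene and library, with a mean of 0 and an SD of 1 in each library, by a step the methods do not describe. Standardizing fixes the spread of every library, so differences are relative to it, and depth is unknown. From the authors' deposited week 6 table of another comparison only the mean normalized count per gene was used, as a limit on low expression. Its log2 fold changes and p-values and the week 1 and week 3 tables were not used. Membership in 28 hallmarks came from a deposited table.

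Scores were fitted in R 4.3.3 with limma 3.58.1 (1 mean per group, trend and robust moderation), which was tested on simulated data. The study calls the tumor samples independent, but the sources used here do not tie libraries to animals, so p-values measure the spread between these samples. Gene names came from the deposited table for 16266 genes and from GENCODE (GRCm38) for 5384. The 29 gene lists (485 genes) were written from general knowledge, apart from the 31 assayed proteins, and the members and lists were chosen with earlier results of these data known. Named genes are, per direction, the 10 called and non-overlapping genes that differed most (mean normalized count 100 or more, no predicted or clone name), the 2 members of each list with the smallest p and the first in the other direction, the assayed proteins, and the 3 largest per direction of each difference between contrasts. Further list members were chosen after their values were seen. Alternatives were the 6 or the 18 BALB/c libraries alone, cyclic loess, quantile and robust line scaling, the count limit, plain moderation, the replicate number as a block, each library left out, and, chosen after seeing the data, a muscle covariate. The block was fitted on the 6 libraries only. Promoters came from RefSeq (GRCm38.p6). Some list members are not reported here. Python 3.11.15 was used.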

Additional observations from a re-analysis of the deposited data

Results flagged for a closer look

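The effect of week 6 differed from that of week 3, by a test of the difference of the 2 contrasts, for 8008 genes. Tumors 2 and 3 of week 3 lay close to the week 3 glands, as given above. Among genes called at week 6 without overlap, Hmga2 stood out with a contrast 2.60 ± 0.32 higher at week 6 (SE, adjusted p = 1.35e-06), Dmp1 with 2.38 ± 0.23 (SE) and Gpa33 with 2.12 ± 0.26 (SE). At week 3 their own differences were 0.61, 0.24 and 0.23, none of them called. In the other direction stood 3 muscle genes, Myh4 with -3.53 ± 1.33 (SE, adjusted p = 0.039), Ckm with -3.21 ± 1.20 (SE, adjusted p = 0.038) and Atp2a1 with -3.12 ± 1.23 (SE, adjusted p = 0.049). The mean score of the skeletal muscle list at week 3 was 0.88, 1.77 and 0.98 in tumors and 1.61, 1.57 and -0.12 in glands, so gland 3 of week 3 had the lowest value of these. These 3 calls sit close to the threshold. All 3 lost their calls without tumor 1 or 2 or gland 1 or 2 of week 6, or tumor 2 or gland 3 of week 3, Myh4 and Atp2a1 also without gland 3 of week 6 or tumor 3 of week 3, and Atp2a1 without tumor 1 of week 3. Without gland 3 of week 3 the adjusted p was 0.12 for Myh4, 0.12 for Ckm and 0.14 for Atp2a1. With the muscle covariate the difference was -0.17 for Myh4 (adjusted p = 0.62), -0.15 for Ckm (adjusted p = 0.36) and 0.030 for Atp2a1 (adjusted p = 0.90), and Atp2a1 was not called after cyclic loess (adjusted p = 0.055) or quantile normalization (adjusted p = 0.051). Hmga2, Dmp1 and Gpa33 kept their calls in each of these fits.

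The effect in 4T1 tumors differed from that in Py230 tumors at week 6, by the test of that difference, for 5517 genes. Hmga2 again led, with 3.19 ± 0.32 (SE, adjusted p = 4.01e-08) and a Py230 difference of 0.018. Hhip differed by 2.63 ± 0.29 and Msln by 2.47 ± 0.24 (SE), with Py230 differences of -0.42 and -0.16. On the negative side, Col9a1, a cartilage collagen chain, differed by -2.77 ± 0.19 (SE, adjusted p = 1.25e-10), with -1.34 in 4T1 and 1.42 in Py230 tumors. Wfdc18, a whey acidic protein family member, differed by -2.69 ± 0.24 (SE), with -1.73 and 0.96, and Igfbp2, a binding protein of insulin-like growth factors, by -2.59 ± 0.36 (SE), with -0.68 and 1.92. In all alternatives run for this test these 6 genes kept their calls. Igfbp2's own 4T1 difference was not called without tumor 2 (adjusted p = 0.14) or gland 1 (adjusted p = 0.12). Groups of 3 were too small to test single libraries as outliers.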

How the results depend on the processing

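The number of genes called at week 6, 13015 over all libraries, was 12430 with only the 6 libraries, 11963 with the 18 BALB/c libraries, 12140, 12867 and 14121 under cyclic loess, quantile and robust line scaling, 8909 of 13567 with the count limit (5536 of them higher), 13017 under plain moderation, 9530 with the muscle covariate, and 11480 to 12501 without 1 library. With the replicate number as a block, fitted on the 6 libraries only, 10876 were called, against 12430 in those libraries without it. Of the 10876, 10336 were shared with the fit over all 36 libraries. Against that larger fit, list counts moved by over 1.5 times for the junction (0 higher, 4 lower), T and NK cell (3 lower) and erythroid (1 higher) lists. The 6 libraries without the block already gave 0 higher and 5 lower junction genes and 1 higher erythroid gene. For T and NK cell genes they gave 1 lower. No label says that the replicate numbers pair the samples. Deviations of same-numbered week 6 tumors and glands correlated at -0.0072, -0.17 and -0.22. Differently numbered pairs were not compared, so these values cannot settle whether samples were paired or shared a batch. The difference from week 3 was called for 5467 (muscle covariate) to 9232 genes (robust line), with 6588 to 9053 without 1 library, and that from Py230 for 4113 (count limit) to 6330 (robust line), with 4622 to 5358 without 1 library. Of called genes 64.2% were higher, 68.6% after robust line scaling and 50.6% after cyclic loess, while the median of all genes moved from 0.065 to 0.094 and -0.0017.

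Of 116 named genes, 83 kept call and direction under all alternatives, 27 changed their call under at least 1 and 6 changed only sign while not called. With the muscle covariate 12 lost their call and 2 others reversed without a call, Atp2a1 (0.081) and Acta1 (0.00073). The difference of Atp2a1 from week 3 also reversed (0.030). The covariate is made from genes that include these. Under the count limit the lists of rarely expressed genes lose members, leaving 8 of the chemokine, 6 of the cytokine, 6 of the T and NK cell and 3 of the oncofetal genes called higher. Depth cannot be read from the scores, so genes near the bottom of each library, such as Ly6g and Ifng, carry an unknown counting error.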

Other observations

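Hallmark groups, a published collection of gene sets, gave the following counts. Of 191 E2F targets 169 were called higher and 2 lower (median 0.39), of 180 MYC targets 149 and 4 (median 0.24), of 188 MTORC1 genes 115 and 25, and of 135 DNA repair genes 81 and 11, where 38.6% and 21.5% of all genes were. Adipogenesis (10 higher and 109 lower of 193), fatty acid metabolism (26 and 79 of 149) and bile acid metabolism (12 and 47 of 95) held more lower than higher calls. Angiogenesis held 10 higher and 10 lower of 32. Hallmarks share genes with each other and with the lists.

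All 17 genes of the mitochondrial genome whose mean normalized count reached 100 were called lower, with a median of -0.53. Their median was -0.44 in Py230 tumors at week 6 and -0.19 in 4T1 tumors at week 3.

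Of all 13567 genes with that minimum 40.5% were called higher and 24.7% lower. By chromosome, among autosomal genes with that minimum, the share called higher ran from 24.3% of 984 genes on chromosome 7 to 58.9% of 704 on chromosome 8, with 51.4% on chromosome 5 and 51.2% on chromosome 3. The shares called lower were 34% on chromosome 7 and 14.8% on chromosome 8. Shares by chromosome were not computed under other scalings, on which the share called higher depends. The median difference was 0.16 on chromosome 8 and -0.022 on chromosomes 6 and 7. In the Py230 comparison of week 6 the medians of chromosomes 8, 6 and 7 were 0.065, -0.043 and -0.0044, and in the 4T1 comparison of week 3 -0.0015, -0.0072 and -0.010. Genes of a chromosome are not independent of each other, and no test was made.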
